A study of Mus musculus with 3 samples.

Results

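Expression of 38 genes of meiotic prophase and of the germ line was followed in mouse ovaries before and after birth. The genes were taken as a list, from Sycp1 to Stk31, that was chosen with earlier results of these data known. Counts of members called below are therefore not independent of these data. The genes were matched by symbol among 53465 gene rows. They have 39 identifiers, because Spata22 has 2, whose counts were added and are uncertain. The list holds 7 genes of the synaptonemal complex, 5 of cohesin and the chromosome axis, 3 of meiotic entry, 5 of break formation, 7 of strand exchange, 5 of crossover formation and 6 other germ cell genes. Ovaries of wild-type C57BL/6 female mice were dissociated with collagenase and strained, which gave 1 single-cell library for embryonic day 16.5 (E16.5, named day 17 in the sample's title), 1 for postnatal day 7 (PND7) and 1 for postnatal day 14 (PND14). No allele or treatment was stated for the mice, and the labels do not say how many animals gave each library. With 1 library per age, a difference between ages cannot be told apart from a difference between libraries. No p-value is therefore given, and every interval covers counting error only.

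In the fetal mouse ovary, retinoic acid and other signals induce Stra8, germ cells replicate their DNA and enter the prophase of meiosis together. Cohesins and axis proteins then organise each chromosome, SPO11 cuts the DNA, recombinases pair the broken ends with the homologous chromosome, and the synaptonemal complex zips the homologs along their length. Around birth the oocytes stop at the dictyate stage, are enclosed in follicles and begin to make the zona pellucida, whose proteins include ZP3.

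After filtering, 1548 of 1554 cell barcodes were kept, and the libraries shared 0 barcodes. The 3 libraries held 8743797 to 9065595 unique molecular identifiers (UMIs, each 1 captured RNA molecule), and the median cell of a library had 11435 to 15090.5. The shallowest kept cells had 5568 to 6747 UMIs, so cells with little RNA were outside the deposited tables and shares of cells depend on that floor. At E16.5, 67 of 456 cells (14.7%) fell into 2 clusters called germ-cell-like from 28 markers that exclude the members, and the members were also kept out of the clustering. No E16.5 cell had more than 1 UMI of Zp3. After birth, germ cells were taken as cells with 10 or more Zp3 UMIs, which gave 11 cells at PND7 and 3 at PND14 (Zp3 cells). The lowest cell inside had 17 Zp3 UMIs at PND7 and 65 at PND14, and the highest outside had 9 and 1; the PND7 cell with 9 lies just under the cut and in the postnatal germ cell cluster. Of the 28 markers, which named the clusters and include Zp3, 23 were detected in the E16.5 germ cells, 28 in the PND7 Zp3 cells and 27 in the PND14 Zp3 cells. The 28 markers summed to 1928 CPM (UMIs per 1000000 UMIs of the same cells) at E16.5, 11897 CPM at PND7 and 10829 CPM at PND14. Somatic cells, meaning all cells outside germ cell clusters, numbered 389, 497 and 580. A Zp3 cell held far more UMIs than an embryonic germ cell: medians were 82311 (PND7), 76636 (PND14) and 14095 (E16.5), so CPM and UMIs per cell are given apart. Zp3 cells also carried granulosa markers: 18 of 20 were detected at both ages, summing to 1707 CPM at PND7 (range over cells 135 to 3025 CPM) and 2416 CPM at PND14 (1057 to 3171 CPM), with Cyp19a1 at 0 at both ages, Fshr at 0 at PND7 and Inhba at 0 at PND14. In the E16.5 germ cells these markers summed to 198 CPM. Endothelium markers summed to 372 CPM in the PND14 Zp3 cells, and ranged from 12.1 to 1057 CPM over the 3 cells. The part of adhering or enclosed granulosa cells, or of endothelial cells, in the levels below was not tested, and no doublet caller was run.

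**Figure D1:**
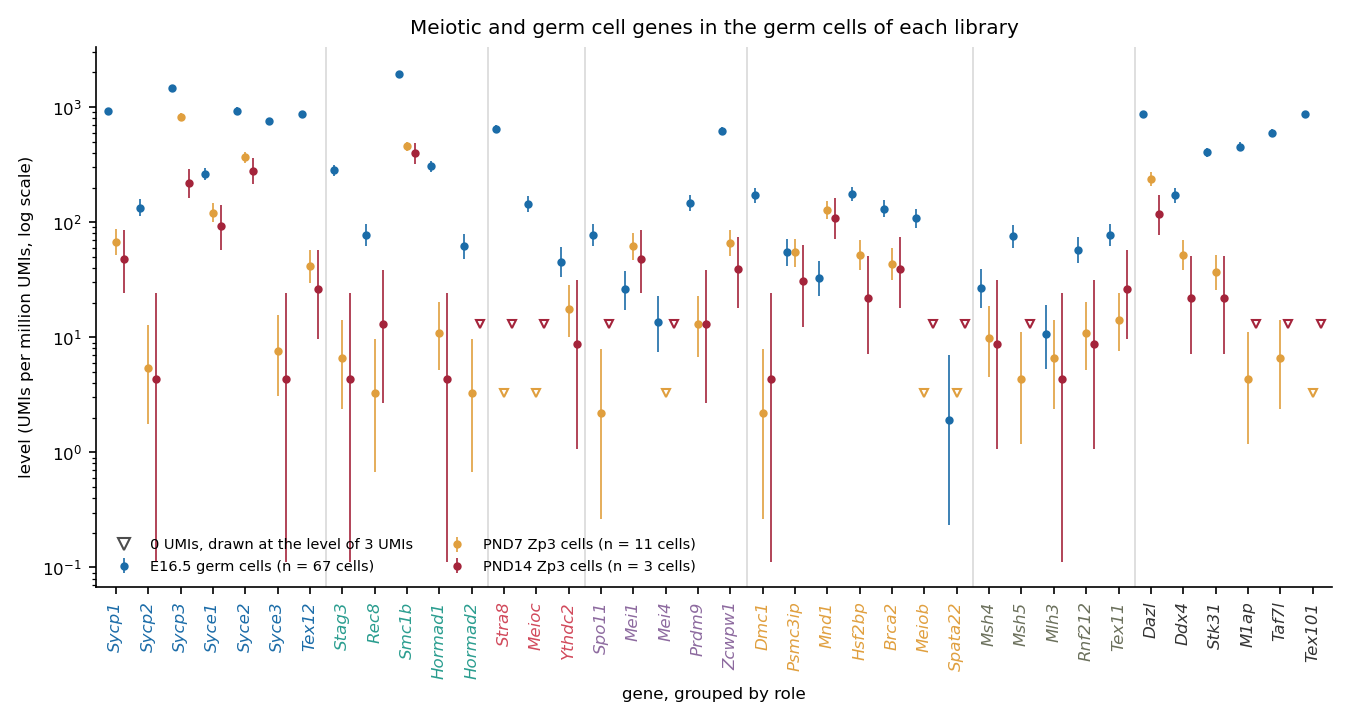
Level of each of the 38 genes in CPM (log axis) in the E16.5 germ cells (67 cells), PND7 Zp3 cells (11 cells) and PND14 Zp3 cells (3 cells), grouped by role; bars are exact 95% Poisson intervals and open triangles mark 0 UMIs, drawn at the level of 3 UMIs. Most genes stand lower in the Zp3 cells than in the E16.5 germ cells, while Mnd1 and Mei1 stand higher. Stra8, Meioc, Mei4, Meiob, Spata22 and Tex101 are at 0 UMIs in both postnatal classes. Spata22 had only 2 UMIs at E16.5, so its 0 shows no loss.

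At E16.5 nearly all of the 38 genes were higher in germ cells than in somatic cells. Of the 37 members with at least 10 UMIs in the germ and somatic cells together, 36 were at least 2-fold higher in germ cells on the log2(CPM + 10) scale and 0 were lower, where 13.6% of all 15290 genes measured were higher. All 37 reached that minimum in the germ cells alone, so this count supports nothing by itself. The median log2 ratio of the members was 3.41, against -0.02 over all genes measured. Mlh3, a mismatch repair protein of the crossover step, was the exception, at 10.6 CPM in germ cells and 5.55 CPM in somatic cells. Spata22, a partner of MEIOB on single-stranded DNA, had 2 UMIs and was not measured. The germ cells' members summed to 14010 CPM, or 217 UMIs per cell.

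The synaptonemal complex genes gave the largest share of this sum, 5328 CPM. Sycp3, a component of its lateral elements, reached 1457 CPM (95% interval 1385 to 1533) and had a UMI in every one of the 67 cells, with a median of 21 UMIs per cell. Sycp1, the transverse filament protein, reached 925 CPM (868 to 986). Of the central element proteins, Syce2 reached 931 CPM, Tex12 866 CPM, Syce3 752 CPM and Syce1 263 CPM. Among the cohesins and axis proteins, the meiotic cohesin subunit Smc1b had 1949 CPM (1865 to 2036), and its germ cell level was 46.8 times the somatic level (41.7 to 52.8). Hormad1, which marks unsynapsed axes, had 307 CPM, Stag3 282 CPM and Hormad2 61.7 CPM. Rec8, the kleisin of meiotic cohesin, had 78.1 CPM and a UMI in 20 of 67 cells.

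Stra8, the gatekeeper of meiotic entry, had 647 CPM (599 to 698), with cells between 0 and 74 UMIs. Its RNA was found in 64.2% of the germ cells, and in 53.7% (41.1 to 66.0) after each cell was thinned to 5000 UMIs. In erythroid-like cells of the same library, which should lack it and had a median of 15792 UMIs, the shares were 4.17% and 0%. Meioc and Ythdc2, also grouped under meiotic entry, had 144 and 45.3 CPM. Spo11, the enzyme that makes the breaks, had 78.1 CPM, and Zcwpw1, a reader of the PRDM9 histone marks, had 625 CPM. Dmc1, the meiotic recombinase, had 171 CPM, while its accessory factors Psmc3ip and Mnd1 had 54.9 and 32.8 CPM. Tex101, a germ cell surface glycoprotein, had 863 CPM, and Dazl, an RNA-binding protein of the germ line, had 871 CPM.

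Members were spread over the genome. All 39 identifiers were found in the GENCODE M21 annotation of GRCm38, 33 of them with the same version number. On that build Stra8 lies on chromosome 6 from 34920163 to 34939344 on the plus strand, Rec8 on chromosome 14 from 55618037 to 55625395 on the plus strand, and Syce3 on chromosome 15 from 89390174 to 89410503 on the minus strand. Sycp1 lies on chromosome 3 from 102818499 to 102936100 on the minus strand, and Mnd1 on the same chromosome from 84087933 to 84155786 on the minus strand. A gene on the same strand overlaps 7 of the identifiers, among them both of Spata22, so that UMIs there could be split.

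Promoter sequences of 34 of the 38 members were found in RefSeq (GRCm38.p6), as windows from 250 bases before to 50 bases after each start site. Those of 6 genes are shown, a choice among the members that divided between the E16.5 germ cells with and without Stra8 RNA, as given below. Capitals mark matches, on either strand, to 3 of the 4 motifs searched: the STRA8 motif CNCCTCAG, an E2F-like motif GCGGGAA and the E-box CACGTG. The fourth motif, the cyclic AMP response element TGACGTCA, was in none of the 6.
Tex12, chr9:50561219-50561518, minus strand: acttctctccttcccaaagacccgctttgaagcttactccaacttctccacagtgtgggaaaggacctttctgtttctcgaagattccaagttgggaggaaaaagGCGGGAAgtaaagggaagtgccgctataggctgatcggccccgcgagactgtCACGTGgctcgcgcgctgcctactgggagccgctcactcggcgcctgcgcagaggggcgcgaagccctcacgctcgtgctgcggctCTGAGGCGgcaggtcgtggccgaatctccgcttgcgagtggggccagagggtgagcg
Syce2, chr8:84872008-84872307, plus strand: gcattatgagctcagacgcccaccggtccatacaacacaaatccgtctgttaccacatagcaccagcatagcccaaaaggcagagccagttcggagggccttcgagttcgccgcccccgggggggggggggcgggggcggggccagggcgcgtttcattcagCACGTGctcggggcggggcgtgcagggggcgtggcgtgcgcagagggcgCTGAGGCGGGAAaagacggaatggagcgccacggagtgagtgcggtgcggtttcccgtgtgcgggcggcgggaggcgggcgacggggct
Sycp3, chr10:88459337-88459636, plus strand: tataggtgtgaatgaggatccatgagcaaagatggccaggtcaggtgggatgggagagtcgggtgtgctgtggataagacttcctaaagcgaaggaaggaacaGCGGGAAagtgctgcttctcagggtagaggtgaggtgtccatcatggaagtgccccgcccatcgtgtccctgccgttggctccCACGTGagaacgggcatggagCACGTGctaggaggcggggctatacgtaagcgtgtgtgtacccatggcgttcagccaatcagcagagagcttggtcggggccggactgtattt
Rec8, chr14:55617916-55618215, plus strand: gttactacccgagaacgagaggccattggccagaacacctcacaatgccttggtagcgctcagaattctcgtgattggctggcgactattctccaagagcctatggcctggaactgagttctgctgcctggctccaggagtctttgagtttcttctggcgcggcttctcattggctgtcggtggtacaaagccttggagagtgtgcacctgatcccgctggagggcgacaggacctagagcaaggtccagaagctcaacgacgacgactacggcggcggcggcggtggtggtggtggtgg
Sycp1, chr3:102936051-102936350, minus strand: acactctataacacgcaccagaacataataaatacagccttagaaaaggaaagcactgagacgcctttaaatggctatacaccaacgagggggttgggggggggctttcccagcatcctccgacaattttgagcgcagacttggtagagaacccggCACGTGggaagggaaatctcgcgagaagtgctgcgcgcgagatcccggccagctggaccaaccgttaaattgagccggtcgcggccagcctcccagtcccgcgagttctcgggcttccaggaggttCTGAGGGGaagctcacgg
Syce3, chr15:89410454-89410753, minus strand: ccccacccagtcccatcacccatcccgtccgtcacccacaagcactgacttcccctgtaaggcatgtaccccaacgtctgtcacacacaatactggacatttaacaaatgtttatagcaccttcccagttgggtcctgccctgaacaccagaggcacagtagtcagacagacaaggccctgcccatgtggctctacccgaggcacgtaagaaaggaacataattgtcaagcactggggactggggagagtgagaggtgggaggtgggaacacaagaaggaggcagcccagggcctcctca

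Counted from 1 at the 5′ end of each window, the E-box began at base 158 in Tex12, 163 in Syce2, 157 in Sycp1, and 187 and 208 in Sycp3. The STRA8 motif began at base 244 in Tex12, 212 in Syce2 and 283 in Sycp1, each time on the opposite strand. The E2F-like motif began at base 106 in Tex12, 217 in Syce2 and 104 in Sycp3; in Syce2 it shares bases with the STRA8 motif, so the capitals there run together. Rec8 and both listed starts of Syce3 held none of these letters. A second listed start of Syce2, chr8:84871861-84872160, held none either. Other members that divided by Stra8 are not shown. Among them, Syce1 and Sycp2 held none of the motifs, and M1ap and Dazl held the STRA8 motif but no E-box. A link between a motif and the direction of a gene was not tested. Over all members with a window, the E-box was in 10 of 34 (29.4%), against 8.09% of all genes with a window. The STRA8 motif was in 9 of 34 (26.5%, against 9.12%), the E2F-like motif in 14 of 34 (41.2%, against 5.29%) and the cyclic AMP response element in 1 of 34 (2.94%, against 2.03%). Of single windows of this length over the genome, 7.15%, 7.94%, 4.60% and 1.79% held them. Over all windows 53.8% of bases were G or C. The members' windows ran from 43.3% (Msh4) to 72% (Ddx4), most of them above that share. The part of base composition in the motif shares was not tested. A match describes letters in this window, and binding was not measured.

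Within the E16.5 germ cells, Stra8 and the synapsis genes did not move together as a block. The clusters, made without the members, were 45 cells in which Stra8 was the leading gene and 22 cells led by Zfp607a, a zinc finger gene. Stra8 stood at 928 CPM (858 to 1001) in the first and 27.8 CPM (12.7 to 52.8) in the second. Rec8 followed it, at 111 and 6.18 CPM. For Syce3 the second cluster was higher, with 1075 CPM (965 to 1194) against 605 CPM (550 to 665). Sycp1 had 787 and 1229 CPM in the same order, and Spo11 53.2 and 133 CPM; all 3 were among the 10 leading genes of the second cluster. Smc1b was close to level, at 1924 and 2004 CPM.

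The cells were also split by Stra8 itself after thinning to 5000 UMIs. With a Stra8 UMI there were 36 cells, and without one 31. Of the 36 cells, 35 were in the cluster led by Stra8 and 1 in the cluster led by Zfp607a. The 2 splits are thus nearly the same, and a shared direction is no second support. By the 2-fold rule, Rec8 and M1ap, a gene known for a role in male meiosis, were higher in the Stra8-positive cells beside Stra8 itself, where 3.55% of 8316 genes were higher. Stra8 chose the cells, so its call is no result, and the other 2 are a share near that of all genes. Syce3 and Spo11 were lower, 2 of 37 members, which is also near the 3.8% of all genes. Rec8 had 124 CPM with Stra8 and 11.8 CPM without, a ratio of 10.5 (4.31 to 33.3). M1ap had 592 and 250 CPM, a ratio of 2.37 (1.90 to 2.97). Syce3 had 505 and 1108 CPM, and was thus 2.19-fold lower (1.90 to 2.54) with Stra8.

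The 7 synaptonemal complex genes summed to 5400 CPM with Stra8 and 5224 CPM without, a ratio of 1.03 (0.979 to 1.09) whose direction turned without thinning, with another thinning seed and with other ways of splitting by Stra8. Its members divided within that sum, and Syce3 alone passed the 2-fold rule. Tex12 (ratio 1.70, interval 1.47 to 1.97), Syce1 (1.56, 1.20 to 2.04), Syce2 (1.51, 1.32 to 1.74) and Sycp3 (1.36, 1.22 to 1.52) were higher in the Stra8-positive cells. Sycp1 (0.590, 0.519 to 0.671) and Sycp2 (0.644, 0.454 to 0.910), which encodes an axial element protein, were lower, as Syce3 was. Over single thinned cells, the rank correlation with Stra8 was -0.52 for Syce3 and -0.49 for Sycp1, and 0.60 for Dazl and 0.52 for Rec8 (67 cells of 1 library). Depth and mitochondrial share moved with Stra8 as well: the median cell had 15656.5 UMIs and 1.09% mitochondrial UMIs with Stra8, and 12468 UMIs and 1.41% without. Their part in the division was not tested.

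**Figure D2:**
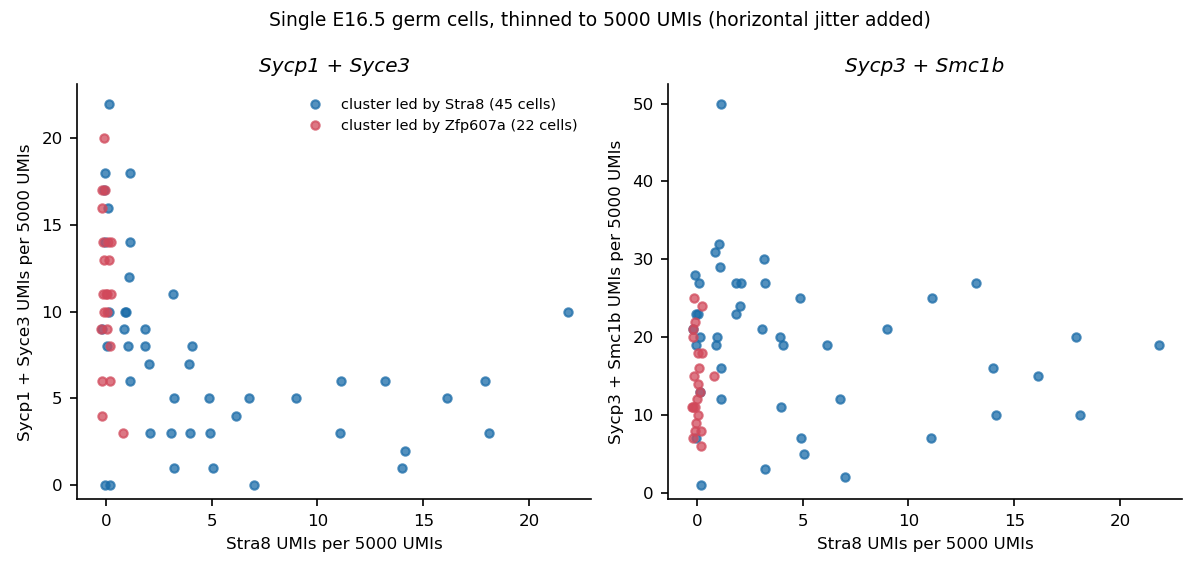
UMIs of Stra8 (horizontal, with jitter) against summed UMIs of Sycp1 and Syce3 (left) and of Sycp3 and Smc1b (right) in each of the 67 E16.5 germ cells after thinning to 5000 UMIs; colours are the 2 clusters. The points spread widely, the cell with the most Stra8 UMIs (22) holds 7 of Sycp1 and 3 of Syce3, and cells of the cluster led by Zfp607a lie at or next to 0 Stra8 UMIs.

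The cells were then placed in an order by the first principal component of variable genes other than the members. In the order that used all variable genes, 97.8% of the component's variance sat in 1 cell, so it describes that cell; Stra8 had 549 CPM in its first 23 cells and 835 CPM in its last 22. When only genes with a UMI in 10 or more of the germ cells were used, a choice made after this was seen, 14.7% sat in 1 cell. This second order was divided into bins of 23, 22 and 22 cells. The order was turned so that the summed oocyte list rose towards the Dppa3 end, with a rank correlation of 0.76. That list includes Dppa3 itself. This end was led by Dppa3, Dppa5a, Gpx4, Rhox5, Mif, Ptov1, Pou5f1 and Dut, among them genes known from germ cells before meiosis. The other was led by Hspb11, Hspa5, H2-D1, H2-K1, Calr, Tex15, Pigp and Snhg9, of which Tex15 is a meiotic gene. Neither end was given a time.

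Stra8 stood at 48.9 CPM in the bin at the Hspb11 end, 466 CPM in the middle and 1261 CPM at the Dppa3 end. Rec8 stood at 3.26, 12 and 192 CPM. Dazl was lower at the Hspb11 end, with 564, 998 and 1002 CPM, and so was Hsf2bp, a BRCA2 partner, with 108, 170 and 235 CPM. Syce3 ran in the opposite direction, at 1325, 804 and 265 CPM, 5.00-fold lower (4.03 to 6.26) at the Dppa3 end. Sycp1 had 1429, 974 and 494 CPM, Smc1b 2512, 2197 and 1304 CPM, and Spo11 134, 71.7 and 40.4 CPM. Dmc1, with 202, 230 and 95.9 CPM, and Meiob, a single-strand binding protein, with 127, 161 and 47.9 CPM, were also lowest at the Dppa3 end. Tex12, Syce2, Sycp3 and M1ap had their highest value in the middle bin. Syce2, for example, had 816, 1217 and 780 CPM. Unlike in the split by Stra8, Sycp3 was lower at the Dppa3 end than at the Hspb11 end (ratio 0.687, 0.603 to 0.784). Syce1 (1.00), Syce2 (0.956) and Tex12 (1.14) had ratios between these ends whose intervals include 1. The median cell had 12680 UMIs in the bin at the Hspb11 end and 17388.5 at the Dppa3 end, with 1.33% and 0.838% mitochondrial UMIs, and the part of depth was not tested. In the cluster led by Zfp607a, 2 of 22 cells had more than 1000 CPM of granulosa or stroma markers.

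**Figure D3:**
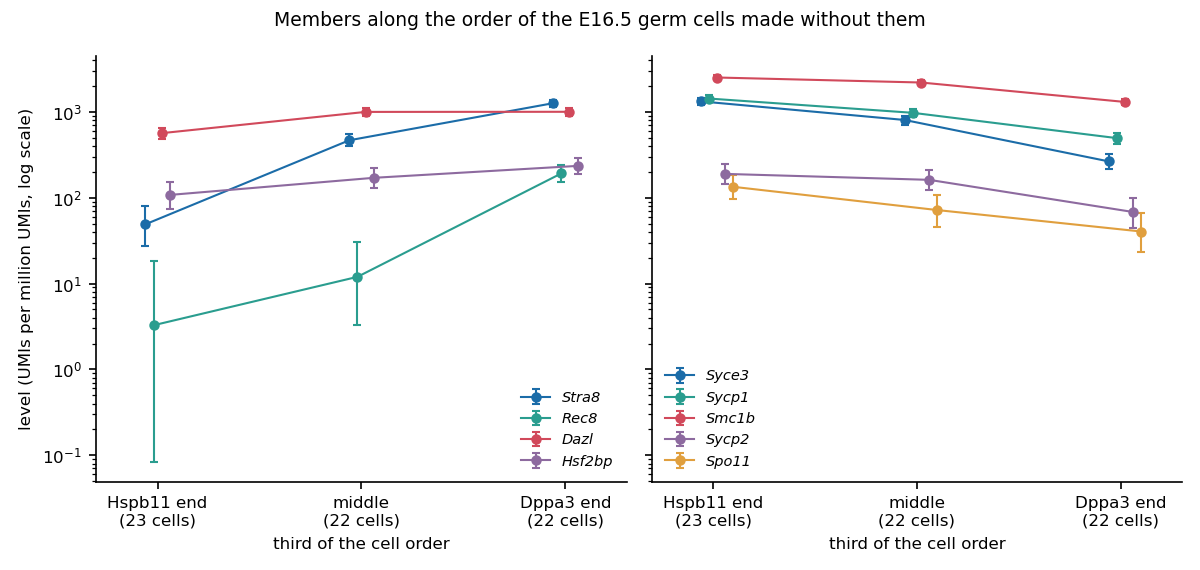
Level (CPM, log axis, with exact 95% Poisson intervals) of 9 members in bins of 23, 22 and 22 E16.5 germ cells, ordered without the members. Left, Stra8 goes from 48.9 to 1261 CPM and Rec8 from 3.26 to 192 CPM towards the Dppa3 end; right, Syce3 goes from 1325 to 265 CPM.

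In the postnatal Zp3 cells the members made up a much smaller share of RNA than in the E16.5 germ cells. Any postnatal germ cells with fewer than 10 Zp3 UMIs are outside this class, and nothing is said of them here. The members summed to 14010 CPM at E16.5 (13784 to 14240), 2735 CPM at PND7 (2629 to 2844) and 1620 CPM at PND14 (1459 to 1793). In the PND7 Zp3 cells 31 of 37 members were at least 2-fold lower in CPM than in the E16.5 germ cells, where 10.9% of 11343 genes were, and 2 were higher, where 19.9% of genes were. The median log2 ratio was -2.57, against 0.13 over all genes measured. At PND14 32 of 37 were lower (16.6% of 9629 genes) and 1 was higher (21.3%), with a median of -2.78 against 0.04. Both ages are compared with the same embryonic cells. In the E16.5 germ cells alone 37 members had 10 or more UMIs, against 20 in the PND7 and 8 in the PND14 Zp3 cells. Members thus pass the minimum mostly through the class where they are high. These counts, and those per cell below, therefore support nothing by themselves.

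Stra8 and several genes of early prophase were not detected. In the 14 Zp3 cells 6 members had 0 UMIs: Stra8, Meioc, Mei4, Meiob, Spata22 and Tex101. A count of 0 allows up to 3.27 CPM at PND7 and 13.1 CPM at PND14 (3 UMIs). Spata22 had 1.93 CPM at E16.5, under both of these levels, so its 0 shows no loss. Mei4 had 13.5 CPM at E16.5, close to the PND14 level, so its 0 at PND14 says little. Stra8 was thus at least 198-fold lower in CPM at PND7 than at E16.5, Tex101 at least 264-fold, and Meioc at least 43.9-fold. Of Spo11, 2 UMIs were found at PND7 and 0 at PND14, and of Dmc1 2 and 1. The central element gene Syce3 went from 752 CPM to 7.64 CPM at PND7, 98.5-fold lower (47.6 to 246), and 4.38 CPM at PND14. M1ap was 104-fold lower at PND7 (40.2 to 382) and Taf7l, a germ cell paralogue of a general transcription factor subunit, 90.7-fold (41.4 to 248).

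Other members of the same structures were lower by less. Sycp3 had 1457 CPM at E16.5, 819 CPM (762 to 880) at PND7 and 219 CPM (162 to 289) at PND14, and its PND7 level missed the 2-fold rule. Syce2 had 931, 367 and 280 CPM, and Syce1 263, 121 and 91.9 CPM. Smc1b had 1949, 456 and 398 CPM, 4.27-fold lower (3.85 to 4.76) at PND7. Its cohesin partners stood far lower at PND7, with Stag3 43.2-fold lower (19.6 to 119) and Rec8 23.9-fold lower (7.88 to 118) on 3 UMIs. Dazl had 871, 237 and 118 CPM and Ddx4, an RNA helicase of the germ line, 171, 52.4 and 21.9 CPM.

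Mnd1 and Mei1 went against the rest. Mnd1, which with PSMC3IP helps the recombinases find the homolog, had 32.8 CPM at E16.5, 129 CPM (107 to 154) at PND7 and 109 CPM (70.8 to 162) at PND14. Its level at PND7 was 3.93 times that at E16.5 (2.66 to 5.93). Psmc3ip itself had 54.9, 54.5 and 30.6 CPM, a PND7 ratio of 0.993 (0.665 to 1.48). Mei1, needed for break formation, had 26.0, 62.2 and 48.2 CPM, a PND7 ratio of 2.39 (1.49 to 3.93) that lies at the edge of the 2-fold rule. Of the measured genes, 4 of 6 for strand exchange and 3 of 5 for crossovers were lower at PND7, among them Hsf2bp with 176, 52.4 and 21.9 CPM and Brca2 with 131, 43.6 and 39.4 CPM.

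Counted per cell, the members' total was similar in both libraries, at 217 UMIs per E16.5 germ cell and 228 per PND7 Zp3 cell, and 123 per PND14 Zp3 cell. The PND7 cells held several times more RNA, so that 85.2% of all genes measured were at least 2-fold higher per cell and 1.97% lower. Against this, 18 of 37 members were lower per cell and 7 higher, with a median log2 ratio of -0.99 where that of all genes was 2.28. Lower on both scales were 18 members, from Sycp1 to Tex101, and Mnd1 and Mei1 were higher on both. Syce1 and Syce2 were lower in CPM and higher per cell, and Sycp3, Psmc3ip and Mlh3 were higher per cell alone. Sycp3 had 22.6 UMIs per cell at E16.5 and 68.3 at PND7, Mnd1 0.507 and 10.7, and Smc1b 30.2 and 38. Syce3 had 11.6 and 0.636, Dmc1 2.64 and 0.182, and Taf7l 9.19 and 0.545.

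**Figure D4:**
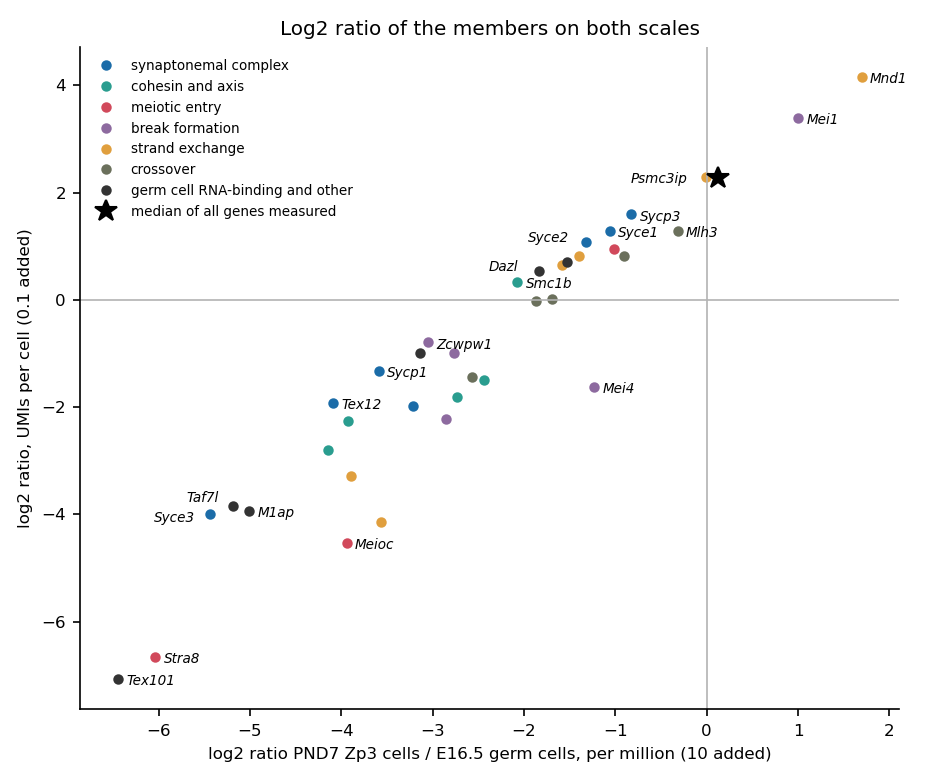
Log2 ratio of PND7 Zp3 cells over E16.5 germ cells for each of 37 members, in CPM (horizontal, 10 CPM added) and per cell (vertical, 0.1 UMIs added); the star is the median of all genes measured, 0.13 and 2.28. All but Mnd1 and Mei1 lie left of the star, and 18 members lie below -1 on both axes.

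Single Zp3 cells differed in how much they kept. Over the 11 PND7 cells the members summed to between 1385 and 6651 CPM (median 2149), and 14 to 27 members had a UMI in a cell. The cell with the highest sum was also the smallest, with 29619 UMIs and 17 Zp3 UMIs, and held 92 Sycp3 UMIs. Sycp3 ranged from 6 to 168 UMIs over the PND7 cells (median 39), and was 2, 30 and 18 in the 3 PND14 cells. Sycp1 ranged from 2 to 19 (median 5), and was 1, 8 and 2; the highest PND7 cell was the same for both genes. Smc1b ranged from 6 to 101 (median 28), and was 23, 46 and 22. Mnd1 ranged from 2 to 25 (median 7), and was 3, 10 and 12. The highest Smc1b and Mnd1 counts were both in the PND7 cell with the most UMIs, 135591.

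In each of the 11 PND7 cells 9 members had a UMI: Sycp1, Sycp3, Syce2, Smc1b, Psmc3ip, Mnd1, Dazl, Ddx4 and Stk31, the last a germ cell kinase with a Tudor domain. All but Stk31 also had one in each PND14 cell. Prdm9, the methyltransferase that places breaks, was found in 6 of 11 and 2 of 3 cells, with 4 UMIs at most. These shares are of deep cells. After thinning to 5000 UMIs, Sycp1 was found in 0 of 11 PND7 cells and in 91.0% of E16.5 germ cells, Mnd1 in 63.6% and 10.4%, and Syce2 in 100% and 95.5%. These thinned shares rest on a single random draw. Each PND7 cell held 2 to 19 Sycp1 UMIs before thinning, so another draw could find Sycp1 in some of them, and its 0 is no absence. Between PND14 and PND7, Sycp3 was 3.74-fold lower (2.81 to 5.09) at PND14, while Smc1b (ratio 0.874, 0.689 to 1.10) and Mnd1 (0.85, 0.529 to 1.32) had intervals that include 1. The 3 PND14 cells overlapped the PND7 cells in Smc1b and Mnd1, and 1 of them lay below every PND7 cell in Sycp3.

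The members were also compared with somatic cells after birth. At PND7 26 members had 10 or more UMIs, and 19 of them were higher in the Zp3 cells, where 10.7% of 15590 genes were. At PND14 11 of 16 were higher, where 11.5% of 15122 genes were, and none of the measured members was 2-fold lower at either age (PND7 0, PND14 0). Members pass this minimum mostly through the class where they are high, so these counts support nothing by themselves, and the remaining 12 at PND7 and 22 at PND14 were not measured. With 50 CPM added in place of 10, 11 were higher at PND7 and 6 at PND14. Smc1b had 456 CPM against 1.03 CPM in PND7 somatic cells, and Dazl 237 against 0.899 CPM. Rec8 had 3.27 against 3.34 CPM, and Dmc1 2.18 against 2.57 CPM, so neither stood out in the Zp3 cells.

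Some members were found in somatic cells. At E16.5 the somatic level was under 10% of the germ cell level for 32 of 38 members, with a median of 2.96%, and above 20% for Rec8, Ythdc2, Psmc3ip, Mnd1 and Mlh3. The members' sum was 1064 CPM in granulosa-like, 640 in immune-like, 360 in stroma-like, 246 in erythroid-like and 158 CPM in endothelium-like cells. Part of it sat in few cells: 3 of 33 immune-like cells held 411 of 707 member UMIs, and 3 of 88 granulosa-like cells held 657 of 1950. Whether those barcodes held a germ cell as well was not tested. Erythroid markers, which germ cells lack, summed to 5712 CPM in the E16.5 germ cells and 485 CPM in the PND7 Zp3 cells; the part of free RNA in the members' low somatic levels was not tested.

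Rec8 and M1ap differed between somatic classes at E16.5. Rec8 had 67.7 CPM (56.3 to 80.7) in E16.5 granulosa-like cells, with a UMI in 52 of 88 cells, against 1.13 CPM in erythroid-like and 4.93 CPM in stroma-like cells. After thinning, 23.9% of granulosa-like and 0% of erythroid-like cells had one, and 17.9% of germ cells; median depths were 17074.5, 15792 and 14095 UMIs. At PND7 Rec8 was highest in surface epithelium-like cells, at 33.7 CPM (16.8 to 60.4), and had 6.63 CPM in granulosa-like cells; at PND14 these were 21.8 and 8.55 CPM. M1ap had 41.4 CPM (34.0 to 49.9) in E16.5 erythroid-like cells, in 56 of 144 cells, and 8.22 CPM in stroma-like cells.

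Syce2, Psmc3ip, Mnd1 and Brca2 were found in dividing somatic cells. A cluster left unnamed, led by the mitotic genes Pimreg, Depdc1a and Aurkb, held 91 PND7 and 54 PND14 cells. Syce2 had 131 CPM (114 to 151) there at PND7; granulosa-like cells had 37.7 CPM and stroma-like cells 29.8 CPM (22.9 to 38.1). Psmc3ip had 43.2 CPM there against 8.50 CPM in stroma-like cells, Mnd1 34.9 against 17.5 CPM, and Brca2, which loads recombinases in all dividing cells, 22.2 against 7.09 CPM. At PND14 Syce2 had 84.8 and Psmc3ip 33.2 CPM in that cluster. At PND7 the Zp3 cells stood higher than that cluster for each of these genes. They had 367 CPM of Syce2, 54.5 of Psmc3ip, 129 of Mnd1 and 43.6 of Brca2. At PND14 they did not for Psmc3ip, with 30.6 CPM on 7 UMIs.

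**Figure D5:**
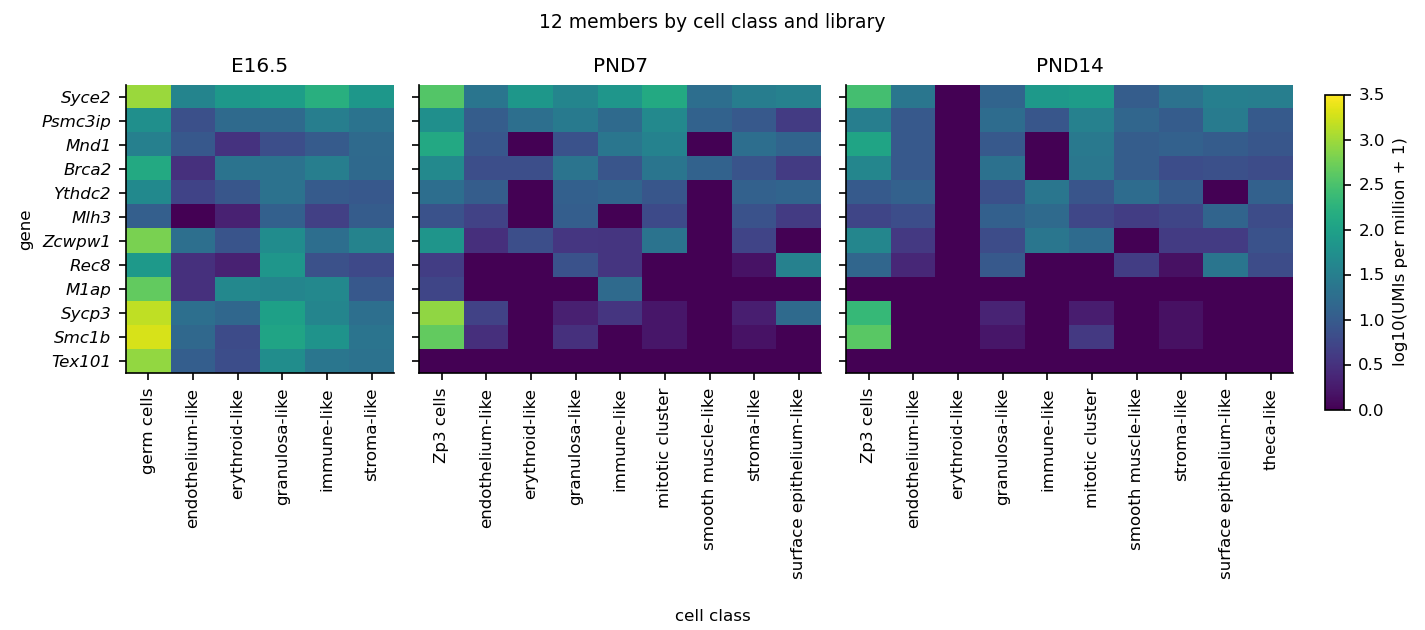
Level of 12 members, as log10(CPM + 1), in germ cells or Zp3 cells and in each somatic class of the 3 libraries. Syce2 is seen in most classes and is brightest outside germ cells in the postnatal mitotic cluster and E16.5 immune-like cells, Rec8 in E16.5 granulosa-like and postnatal surface epithelium-like cells, and Tex101 only at E16.5.

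Genes outside the 38 were compared in the same way. Over all genes measured, 13.6% were higher in E16.5 germ cells than in somatic cells. Between PND7 and E16.5, 19.9% of all genes were higher in CPM and 10.9% were lower. Of 37 other meiotic genes, 36 were in the tables; 26 of 36 measured were higher in E16.5 germ cells than in somatic cells, and 21 of 35 were lower in CPM at PND7 than at E16.5, with 0 higher and a median log2 ratio of -1.36. The central element gene Six6os1 (4930447C04Rik) went from 980 to 5.45 CPM, and the helicase gene Hfm1 from 157 to 1.09 CPM. Among 22 genes of small RNA pathways and RNA binding, several helped name the germ clusters. Of 21 measured, 5 were higher at PND7, a share near that of all genes, and 7 were lower, with a median of -0.25. Gtsf1, a piRNA pathway factor, went from 104 to 1329 CPM and Boll from 45.3 to 2.18 CPM. Of 22 oocyte genes, which include Zp3 itself, 18 of 19 were higher and 0 lower at PND7, with a median of 5.07; Ooep, of the subcortical maternal complex, went from 4.82 to 2747 CPM. Among 19 mitotic germ cell genes, 4 of 13 were higher and 6 lower, as Pou5f1 went from 59.8 to 233 CPM and Top2a, a replication and mitosis gene, from 352 to 22.9 CPM.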

How the data were processed

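Single-cell RNA was measured in 1 library per age, made with 10x Chromium chemistry per the labels' protocols. Per the submitters' processing notes, Cell Ranger 2.1.1 and GRCm38 were used; the deposited matrices hold UMI counts per gene and cell, not normalized. A barcode needed at least 200 genes and no more than 20% of its UMIs from mitochondrial genes. Clustering ran once over the 3 libraries with scanpy 1.11.5 and leidenalg 0.10.2 under Python 3.11.15 (2000 variable genes without the members, 30 principal components, 15 neighbours, resolution 1), giving 21 clusters. A cluster was named where at least 3, and at least 1 in 3 of, the markers of a class were 2-fold higher and no other class led its top 10 genes; the share of the list was set after the clusters were seen. Counts were summed per class into CPM (UMIs per 1000000) with exact Poisson intervals, and ratios carry exact conditional binomial intervals, all at 95%. Genes with 10 or more UMIs in both classes together were measured, and a gene was called by a 2-fold difference after adding 10 CPM, or 0.1 UMIs per cell. Shares were also computed after thinning each cell to 5000 UMIs. UMIs count 3′ ends, so levels were not scaled by gene length. The code was tested on simulated data. The members and lists were chosen with earlier results of these data known. Outside the members, genes were named as the 3 at each end of a list, the 8 with the largest loading at each end of an order, leading genes of clusters, and Zp3. One symbol each in the lists of other meiotic genes and erythroid markers was not matched.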

Additional observations from a re-analysis of the deposited data

How the results depend on the processing

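No paired analysis was possible because each age has 1 library, and no alternative could leave out a replicate. Of 145 alternatives, 120 kept their result within 1.5 times its count or within its 95% interval, and 25 did not. Of the 145, 114 concern counts, which have no direction to reverse. The log2 ratios of the synaptonemal complex sum and of Stra8 between the ends of the first order changed sign under some alternatives, given below. The causes were not tested. Adding 50 CPM before the log lowered the members higher in Zp3 than in somatic cells from 19 to 11 at PND7 and from 11 to 6 at PND14, and the members higher at PND14 than at E16.5 from 1 to 0. Members higher at PND7 than at E16.5 in CPM went from 2 to 1, with Mei1 at the threshold, under 9 alternatives: resolution 0.5, each library clustered on its own, members kept in the clustering, no cells above 2 times the class's median UMIs, 5 or more Zp3 UMIs, cells of germ-cell-like clusters, 50 CPM added, the mean over cells and, chosen after seeing the data, the 2 Zp3 cells under 1000 CPM of granulosa markers. The median log2 ratio of the members, PND7 over E16.5, moved from -2.57 to -3.41 with 1 CPM added and -1.30 with 50. The log2 ratio of the synaptonemal complex sum with Stra8 over without, 0.05, became -0.073 without thinning, -0.16 with another thinning seed, -0.27 for 2 or more Stra8 UMIs, -0.36 for the upper against the lower cells by Stra8 CPM, and 0.61 when E16.5 germ cells were taken by 10 or more marker UMIs. Stra8's log2 ratio between the ends of the first order, 0.60, became 3.04 when ordered by the oocyte list, -3.44 by the mitotic list reversed, -0.083 with 1000 variable genes, 2.62 without genes correlated with depth, 0.93 as a mean over cells and 4.43 in the second order, chosen after seeing the data. Depth limits the PND14 values: 3 cells hold 228454 UMIs, and members under 13.1 CPM there rest on fewer than 3 UMIs.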
